A study of Mus musculus with 8 samples.

Results

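A set of 40 genes that act in G2 phase and mitosis was followed across 8 RNA sequencing libraries of mouse pancreatic tumour isografts, which are tumours grown from transplanted mouse tumour material. The genes were taken from a fixed list of symbols, and all 40 of the 40 listed members were found among the 19129 genes of the deposited table. The libraries labelled MEKi came from 4 mice given trametinib, which blocks the kinases MEK1 and MEK2, for 7 days, and the libraries labelled control came from 4 other mice. The sources used here do not give the treatment of the control mice, the strain, age and sex of the hosts, or the tumour line and its alleles. The values are on the log2-like, variance-stabilised scale of the authors' deposited table, on which 5.12 stands for 0 reads and a difference of 1 is close to a 2-fold change for well covered genes. Values of a gene are listed in the order of replicates 1 to 4, and group values are the mean ± SD over n = 4 libraries.

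Before a cell divides, cyclin A and cyclin B bind the kinase Cdk1, and the active complex drives entry into mitosis. Polo-like and Aurora kinases then help to build the spindle, and the spindle checkpoint holds the cell until every chromosome is attached. The anaphase-promoting complex (APC/C), an E3 ubiquitin ligase, then marks cyclin B for destruction, so that the cell can leave mitosis. The transcripts of these proteins rise together late in the cell cycle, under FoxM1, B-Myb and the MuvB complex, and in bulk tumour RNA they are widely read as a measure of dividing cells. ERK signalling, which MEK activates, promotes entry into the cell cycle in many cell types. In bulk samples, fewer dividing cells and less RNA per dividing cell cannot be told apart.

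Promoter sequence shows what many of these genes share, and the stretches given here hold the letters that recur among them. The CCAAT box, bound by NF-Y, and the cell cycle genes homology region, written TTTGAA or TTCGAA and bound by MuvB complexes, are known elements of G2 and mitotic promoters. Each stretch is the 150 bases before a RefSeq start site of build GRCm38.p6, on the strand of the gene, with matches to CCAAT, to TTTGAA and to TTCGAA in capitals. Both strands were searched, so that CCAAT on the opposite strand reads ATTGG and TTTGAA reads TTCAAA, while TTCGAA reads the same on both, and no match shared a base with another. The stretches are those of the cyclin gene Ccnb2 (chr9:70421555-70421704, minus strand), the topoisomerase gene Top2a (chr11:99024190-99024339, minus strand), the kinesin gene Kif11 (chr19:37376232-37376381, plus strand), the proliferation marker gene Mki67 (chr7:135716380-135716529, minus strand) and, as a member with none of the motifs, the checkpoint gene Mad2l1 (chr6:66535071-66535220, plus strand).
Ccnb2: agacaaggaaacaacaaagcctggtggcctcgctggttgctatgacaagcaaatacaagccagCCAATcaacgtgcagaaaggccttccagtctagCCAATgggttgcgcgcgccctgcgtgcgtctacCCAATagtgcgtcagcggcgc
Top2a: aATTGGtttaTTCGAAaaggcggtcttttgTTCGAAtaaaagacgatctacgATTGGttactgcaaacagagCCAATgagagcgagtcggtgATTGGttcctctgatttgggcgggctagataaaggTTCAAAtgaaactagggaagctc
Kif11: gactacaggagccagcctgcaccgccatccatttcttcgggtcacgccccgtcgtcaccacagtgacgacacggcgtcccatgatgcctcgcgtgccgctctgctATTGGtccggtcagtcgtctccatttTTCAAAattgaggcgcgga
Mki67: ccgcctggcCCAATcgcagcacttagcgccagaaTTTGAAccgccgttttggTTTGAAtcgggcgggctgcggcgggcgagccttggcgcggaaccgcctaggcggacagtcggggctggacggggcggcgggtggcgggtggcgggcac
Mad2l1: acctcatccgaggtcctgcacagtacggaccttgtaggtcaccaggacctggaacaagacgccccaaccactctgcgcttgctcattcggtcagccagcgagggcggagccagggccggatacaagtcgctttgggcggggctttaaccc

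In the Ccnb2 stretch the CCAAT boxes begin 87, 54 and 21 bases before the start site, an even spacing. Ccnb2 also has TTTGAA outside the printed stretch, 167 bases before the start and at base +5 after it. Kif11 has CCAAT at 45 and TTTGAA at 19 bases before the start, both on the opposite strand. Top2a carries all of the motifs, and Mki67 carries TTTGAA at 116 and 98 bases before the start beside a CCAAT at 141. RefSeq windows of 300 bases, 250 before the start and the rest after it, were matched for 33 members, which have 36 windows. CCAAT was present in 28 of the 36 windows (77.8%), against 37.4% of all 32851 windows, and at least 2 copies were present in 20 (55.6%), against 11.7% of all windows. TTTGAA or TTCGAA was present in 28 of the 36 windows (77.8%), against 19.2% of all windows, and 25 (69.4%) held one of these beside CCAAT, against 7.53% of all windows. With only the 250 bases before the start, TTTGAA or TTCGAA was present in 15 of the member windows (41.7%), against 17.2% of all windows. Nuf2, Nusap1, Melk, Mad2l1 and Birc5 had no match to any of the motifs in their windows. These are matches of letters and not measured binding. Aurkb, Ccna2, Cdc25c, Foxm1, Incenp, Kif20a and Tpx2 had no entry in the sequence table.

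Reads in the 19129 genes ranged from 20182531 to 38569550 per MEKi library, against 20090101 to 31797960 per control library. A member had at least 136 and at most 14289 reads in any library, and the 40 members together held 0.211% to 0.286% of the reads of a MEKi library, against 0.15% to 0.275% of those of a control library. Epithelial tumour markers were present in all 8 libraries, with no value of 0 reads among their 12 genes. Acinar cell markers set some libraries apart, as the mean over 15 of these genes was 8.96, 8.37, 5.94 and 11.21 in the MEKi libraries, against 9.12, 14.93, 16.57 and 8.32 in the control libraries. The ERK output gene Dusp6, which encodes an ERK phosphatase, did not separate the labels either, with values of 8.88, 12.12, 12.20 and 11.01 in the MEKi libraries, against 12.19, 12.14, 9.31 and 9.24 in the control libraries. Low and high Dusp6 libraries thus stood under both labels, and the differences given here are between libraries that carry these labels.

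Expression of the members went up and down together from library to library, with high and low libraries within each label. The score of a library, the mean log2 value of the 40 members, was 10.33, 10.43, 10.47 and 9.96 in the MEKi libraries, against 10.45, 10.61, 9.90 and 10.06 in the control libraries. Control 2 was the highest library for 28 members, and the lowest library was MEKi 4 for 19 members, control 3 for 18 and control 4 for 3. Control 2 was among the top 4 libraries for all 40 members and control 3 was among the bottom 4 for all 40. MEKi 4 and control 4 were each among the bottom 4 for 38 members. The scores of the labels overlapped.

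**Figure D1:**
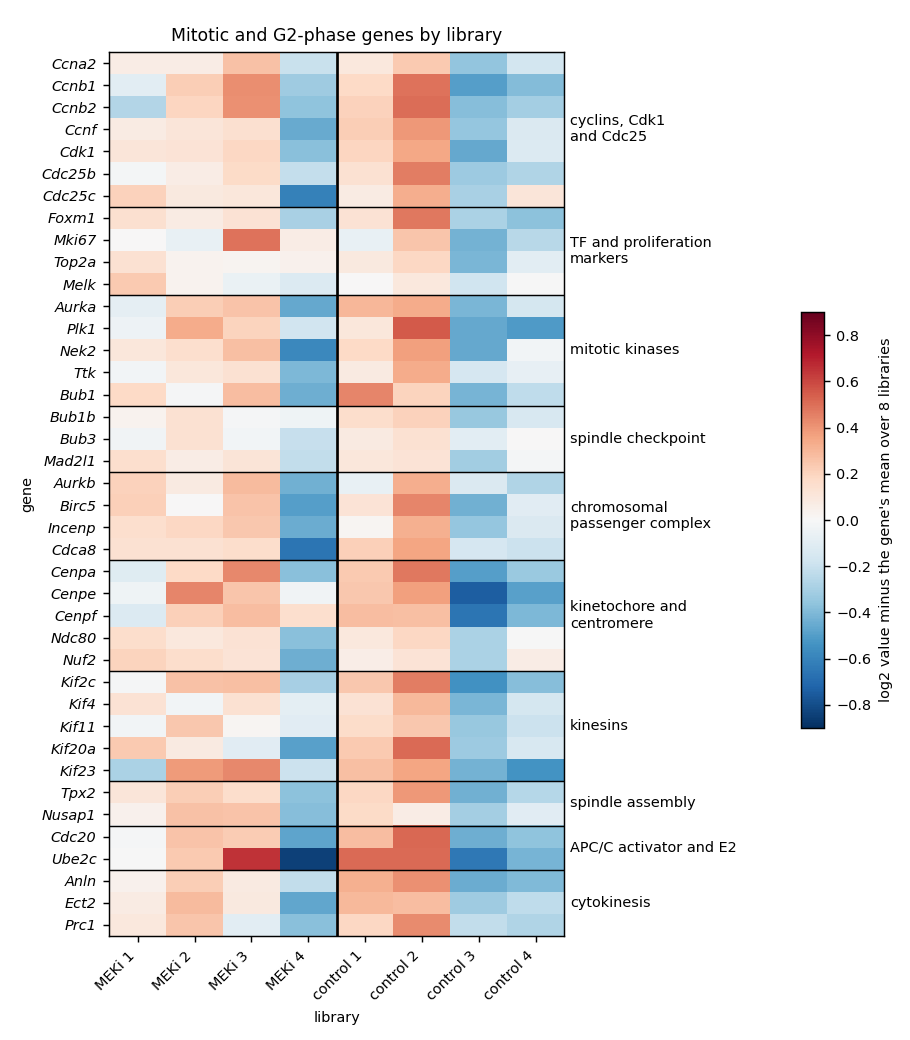
Log2 value of each of the 40 genes (rows, grouped by role) in each library (columns), minus the mean of the gene over the 8 libraries; red is above and blue below that mean, and the vertical line parts the MEKi libraries (left) from the control libraries (right). MEKi 4, control 3 and control 4 are mostly blue, with scores of 9.96, 9.90 and 10.06, and control 2 is red throughout, with a score of 10.61.

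Between the labels, no member passed the test. The score averaged 10.30 ± 0.23 under the MEKi label and 10.25 ± 0.33 under the control label, a difference of 0.04. Limma called 0 of the 40 members higher and 0 lower at an adjusted p of 0.05 over all genes, against 0.00523% of the 19129 genes called in either direction, and 0 members had an unadjusted p under 0.05, against 1.77% of all genes. For 0 members did every MEKi library exceed every control library, against 0.565% of all genes, and for 0 did every MEKi library fall below them, against 0.701%. The mean was higher under the MEKi label for 28 members and lower for 12, against 51.6% of all genes higher. The median log2 difference of the members was 0.03, beside 0.01 over all genes. The count of 28 rests on single libraries, as it was 39 without MEKi 4, 36 without control 2, 16 without MEKi 3, 17 without control 4 and 6 without control 3, and it was 14 with the acinar score as a covariate.

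**Figure D2:**
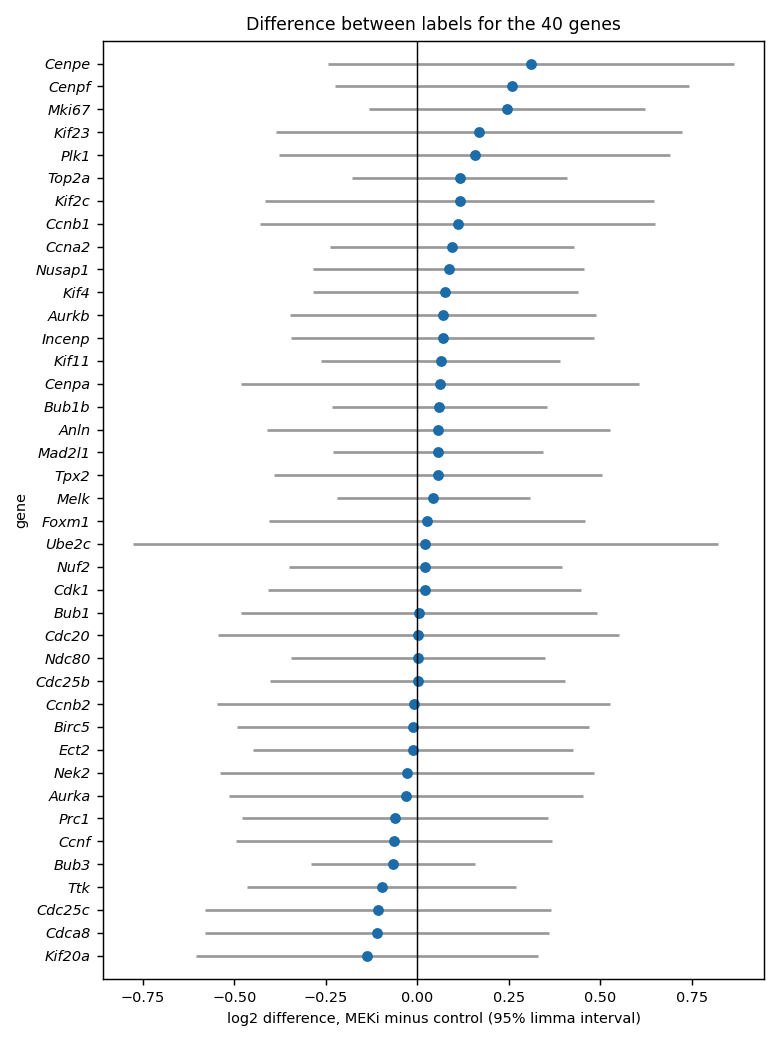
Log2 difference, MEKi minus control, of each of the 40 genes (points) with its 95% interval from limma (lines); genes run down the page from the highest difference to the lowest. Every interval includes 0, and the differences lie between -0.14 for Kif20a and 0.31 for Cenpe.

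Among the cyclins and their kinase, the same libraries tended to stand high and low. Ccnb1, which encodes cyclin B1, the main partner of Cdk1 at mitotic entry, had 10.07, 10.40, 10.59 and 9.85 in the MEKi libraries, against 10.35, 10.66, 9.68 and 9.78 in the control libraries. Ccnb2, which encodes cyclin B2, had 9.29, 9.74, 9.97 and 9.19 in the MEKi libraries, against 9.76, 10.06, 9.17 and 9.25 in the control libraries. For both cyclin B genes control 2 and MEKi 3 were highest, and control 3, control 4, MEKi 4 and MEKi 1 made up the lower end. Ccna2, which encodes cyclin A2, a partner of CDKs in S phase and G2, had 10.94, 10.95, 11.14 and 10.68 in the MEKi libraries, against 10.98, 11.11, 10.52 and 10.72 in the control libraries. The kinase gene Cdk1 itself had 11.02, 11.03, 11.10 and 10.53 in the MEKi libraries, against 11.10, 11.26, 10.45 and 10.79 in the control libraries. Cdk1 was low in MEKi 4 and control 3 and lay between 10.79 and 11.26 in the other libraries. The log2 difference was 0.11 for Ccnb1 (95% interval -0.43 to 0.65), -0.01 for Ccnb2 (interval -0.55 to 0.53), 0.09 for Ccna2 (interval -0.24 to 0.43) and 0.02 for Cdk1 (interval -0.41 to 0.45).

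The Cdc25 phosphatases remove inhibitory phosphates from Cdk1. Cdc25b had 10.07, 10.15, 10.25 and 9.87 in the MEKi libraries, against 10.22, 10.54, 9.75 and 9.81 in the control libraries. Cdc25c had 8.47, 8.35, 8.37 and 7.66 in the MEKi libraries, against 8.34, 8.59, 7.97 and 8.38 in the control libraries. Cdc25b was lowest in control 3 and Cdc25c in MEKi 4, and control 4 was low for Cdc25b but not for Cdc25c. Ccnf, which encodes the F-box protein cyclin F, spanned 9.35 to 9.95 in the MEKi libraries, against 9.46 to 10.20 in the control libraries.

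Proliferation markers did not all follow the score. Mki67 (chromosome 7, 135689784 to 135716361, GRCm38), which encodes the chromosome surface protein Ki-67 used to count cycling cells, had 12.46, 12.39, 12.95 and 12.52 in the MEKi libraries, against 12.39, 12.70, 12.03 and 12.21 in the control libraries. Its highest library was MEKi 3 and its next highest control 2, while MEKi 4, the lowest library for many members, came after these. Mki67 had the smallest p among the members, with a log2 difference of 0.25 (SE 0.17, 95% interval -0.13 to 0.62, limma adjusted p = 1). Top2a, which encodes the topoisomerase that untangles sister chromatids, had 13.26, 13.15, 13.15 and 13.16 in the MEKi libraries, against 13.21, 13.31, 12.71 and 13.03 in the control libraries. Its MEKi values lay close together, and control 3 was its lowest library. Foxm1, which encodes a transcription factor that activates many G2 and mitotic genes, had 10.54, 10.47, 10.52 and 10.10 in the MEKi libraries, against 10.52, 10.87, 10.11 and 10.02 in the control libraries. Foxm1 was low in MEKi 4, control 3 and control 4, in the manner of the score, and its log2 difference was 0.03 (interval -0.40 to 0.46). Melk, which encodes a kinase of dividing cells, spanned 9.34 to 9.70 in the MEKi libraries, against 9.28 to 9.56 in the control libraries.

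The mitotic kinases were low in MEKi 4, control 3 and control 4. Plk1, the polo-like kinase of centrosome maturation and mitotic entry, had 9.25, 9.63, 9.50 and 9.13 in the MEKi libraries, against 9.41, 9.85, 8.84 and 8.79 in the control libraries. Aurka, whose kinase acts at the spindle poles, had 9.34, 9.64, 9.67 and 8.95 in the MEKi libraries, against 9.71, 9.75, 9.0 and 9.25 in the control libraries. Nek2, whose kinase parts the centrosomes, had 9.27, 9.31, 9.44 and 8.59 in the MEKi libraries, against 9.34, 9.54, 8.70 and 9.14 in the control libraries. For Plk1 the lowest libraries were control 4 and control 3, whereas for Aurka and Nek2 the lowest was MEKi 4, and the labels overlapped for all of them. The checkpoint kinase gene Bub1 had 10.10, 9.91, 10.20 and 9.48 in the MEKi libraries, against 10.36, 10.12, 9.50 and 9.69 in the control libraries. Control 1 was highest for Bub1. Ttk, which encodes the checkpoint kinase Mps1, spanned 8.48 to 9.02 in the MEKi libraries, against 8.74 to 9.23 in the control libraries. Log2 differences among these kinases ran from -0.10 for Ttk to 0.16 for Plk1.

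The other spindle checkpoint genes varied less. Bub3, a checkpoint protein that also has roles outside mitosis, had 11.20, 11.37, 11.21 and 11.02 in the MEKi libraries, against 11.31, 11.37, 11.14 and 11.24 in the control libraries. Its range over all 8 libraries was 0.35, the narrowest of the members, and its log2 difference was -0.07 (interval -0.29 to 0.16). Mad2l1, which encodes the checkpoint protein Mad2 that restrains Cdc20, spanned 10.69 to 11.07 in the MEKi libraries, against 10.60 to 11.04 in the control libraries. Bub1b, which encodes the checkpoint protein BubR1, spanned 10.59 to 10.77 in the MEKi libraries, against 10.29 to 10.84 in the control libraries. For Bub1b the 4 MEKi libraries sat inside the control range.

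The chromosomal passenger complex, made of Aurora B, survivin, borealin and INCENP, corrects faulty attachments and guides cytokinesis. Aurkb, its kinase, had 9.57, 9.44, 9.64 and 8.93 in the MEKi libraries, against 9.30, 9.69, 9.23 and 9.09 in the control libraries. Birc5, which encodes survivin, had 10.69, 10.48, 10.73 and 9.97 in the MEKi libraries, against 10.59, 10.91, 10.04 and 10.37 in the control libraries. For both genes MEKi 4 was the lowest library, while MEKi 3 and control 2 were the highest. Cdca8, which encodes borealin, had 10.05, 10.05, 10.07 and 9.25 in the MEKi libraries, against 10.12, 10.26, 9.76 and 9.71 in the control libraries, so that 3 of the MEKi libraries nearly coincided and MEKi 4 stood below them. Incenp spanned 10.41 to 11.09 in the MEKi libraries, against 10.50 to 11.17 in the control libraries.

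Among kinetochore genes, Cenpe and Cenpf had the highest differences of all members, and control 3 and control 4 were their lowest libraries. Cenpe, which encodes the kinesin that carries chromosomes to the spindle equator, had 10.81, 11.29, 11.10 and 10.82 in the MEKi libraries, against 11.09, 11.22, 10.10 and 10.36 in the control libraries. Cenpf, which encodes a large outer kinetochore protein, had 10.41, 10.75, 10.81 and 10.69 in the MEKi libraries, against 10.82, 10.81, 9.88 and 10.13 in the control libraries. In both genes the other 6 libraries lay above control 3 and control 4. The log2 difference was 0.31 for Cenpe (SE 0.25, interval -0.24 to 0.87) and 0.26 for Cenpf (SE 0.22, interval -0.23 to 0.74), with a limma adjusted p of 1 for each. Without control 3 the difference was 0.11 for Cenpe and 0.08 for Cenpf. Ndc80, a subunit of the microtubule-binding complex of the kinetochore, had 9.73, 9.67, 9.70 and 9.20 in the MEKi libraries, against 9.67, 9.77, 9.30 and 9.57 in the control libraries. Ndc80 was lowest in MEKi 4 and its log2 difference was 0.00 (interval -0.34 to 0.35). Its partner Nuf2 spanned 8.95 to 9.59 in the MEKi libraries, against 9.10 to 9.51 in the control libraries. The centromere histone gene Cenpa spanned 9.82 to 10.62 in the MEKi libraries, against 9.70 to 10.67 in the control libraries.

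Among the Kif genes, Kif23 had the widest SD within a label when pooled over both labels. Kif2c had the widest range of the Kif genes over the 8 libraries, followed by Kif20a at 0.99 and Kif23 at 0.97. Kif23, which encodes the kinesin of the centralspindlin complex at the spindle midzone, had 11.12, 11.79, 11.84 and 11.21 in the MEKi libraries, against 11.68, 11.76, 10.98 and 10.87 in the control libraries. MEKi 1 and MEKi 4 stood with control 3 and control 4 at the low end of Kif23, and the other libraries were near each other at 11.68 to 11.84. Kif11, which encodes the kinesin that pushes spindle poles apart, had 11.19, 11.46, 11.24 and 11.11 in the MEKi libraries, against 11.38, 11.47, 10.88 and 11.03 in the control libraries. Tpx2, which encodes the activator of Aurora A on spindle microtubules, had 10.82, 10.94, 10.87 and 10.35 in the MEKi libraries, against 10.91, 11.11, 10.29 and 10.46 in the control libraries. Tpx2 followed the score, with MEKi 4, control 3 and control 4 at 10.29 to 10.46 and the other libraries at 10.82 or above. Kif20a, a kinesin of cytokinesis, had the lowest log2 difference of the members, -0.14 (interval -0.60 to 0.33), and spanned 9.81 to 10.53 in the MEKi libraries, against 9.97 to 10.80 in the control libraries. Kif2c, a microtubule-depolymerising kinesin, spanned 9.13 to 9.70 in the MEKi libraries, against 8.88 to 9.88 in the control libraries. The chromosome motor gene Kif4 spanned 9.08 to 9.31 in the MEKi libraries, against 8.76 to 9.46 in the control libraries. All of these spans overlapped between the labels, as did that of the spindle protein gene Nusap1, which was 10.07 to 10.71 in the MEKi libraries, against 10.14 to 10.63 in the control libraries.

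Ube2c and Cdc20, which serve the APC/C, were among the members that varied most. Ube2c (chromosome 2, 164769898 to 164778822, GRCm38), which encodes the ubiquitin-conjugating enzyme of the APC/C, had 9.93, 10.17, 10.58 and 9.09 in the MEKi libraries, against 10.44, 10.44, 9.29 and 9.52 in the control libraries. The range over the 8 libraries was 1.49, the widest of the 40 members, and both ends of it, MEKi 3 and MEKi 4, carried the same label. Its mean was 9.94 ± 0.63 under the MEKi label and 9.92 ± 0.61 under the control label, with a log2 difference of 0.02 and an interval of -0.78 to 0.82. Cdc20, the activator of the APC/C at anaphase, had 10.00, 10.27, 10.24 and 9.54 in the MEKi libraries, against 10.28, 10.53, 9.57 and 9.65 in the control libraries. Cdc20 was lowest in MEKi 4 and control 3 and highest in control 2.

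Of the cytokinesis genes, Ect2, the exchange factor that activates RhoA at the cell equator, had 11.46, 11.67, 11.48 and 10.92 in the MEKi libraries, against 11.68, 11.67, 11.07 and 11.16 in the control libraries. Prc1, which bundles microtubules at the midzone, had 10.61, 10.76, 10.42 and 10.14 in the MEKi libraries, against 10.70, 10.94, 10.29 and 10.25 in the control libraries. Ect2 and Prc1 were lowest in MEKi 4. Anln, which encodes the actin scaffold anillin, was lowest in control 3 and spanned 10.53 to 10.98 in the MEKi libraries, against 10.31 to 11.17 in the control libraries.

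The spread within a label was wider for these genes than for most. The median SD within a label was 0.32 over the 40 members, beside 0.19 over the 10143 genes with a mean in the range of the members, and it ran from 0.12 for Bub3 and 0.14 for Melk to 0.42 for Kif23 and Cenpe and 0.62 for Ube2c. Among members with none of the searched promoter motifs, it was 0.14 for Melk, 0.19 for Mad2l1, 0.25 for Nuf2, 0.26 for Nusap1 and 0.36 for Birc5. Bub3, which is narrower still, has CCAAT and TTTGAA. A relation of motifs and spread was not tested. Per kilobase of exon, as a level in reads scaled by the authors' size factors, Top2a was highest with 1023 ± 39.4 under the MEKi label and 955 ± 167 under the control label (SD, n = 4 each). Mki67 was next over all 8 libraries, with 608 ± 114 under the MEKi label and 514 ± 106 under the control label, where Cdc20 was higher at 537 ± 186. Cdc25c had the lowest level per kilobase, with 48.5 ± 13.7 under the MEKi label and 52.5 ± 11.2 under the control label. The length used is the union of all annotated exons of a gene. It can exceed the length of the transcripts present, so the order of genes depends on the annotation. For each of these genes the levels of the labels differed by less than the larger of their SDs.

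Set beside Dusp6, the mitotic score did not follow the order of Dusp6 in every library. The libraries with Dusp6 between 12.12 and 12.20, namely MEKi 2, MEKi 3, control 1 and control 2, had scores of 10.43, 10.47, 10.45 and 10.61 in that order. Control 3 and control 4, with Dusp6 at 9.31 and 9.24, had low scores of 9.90 and 10.06. MEKi 1 had the lowest Dusp6 of all at 8.88 and yet a score of 10.33, and MEKi 4 had Dusp6 at 11.01 and a score of 9.96. MEKi 1 and MEKi 4 thus break the order seen in the other libraries. As Dusp6 fell into separate clusters, with a gap of 1.70 between 9.31 and 11.01 that leaves 3 libraries below and 5 above it, no correlation over the libraries is given and the relation was not tested.

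S phase genes were ordered differently. Their list held 28 genes of DNA replication and its control, nucleotide supply and entry into S phase. It had mean values of 10.43, 10.01, 10.05 and 9.68 in the MEKi libraries, against 10.04, 10.13, 10.14 and 10.35 in the control libraries. The highest S phase means were those of MEKi 1, control 4 and control 3, the libraries with the lowest Dusp6, and MEKi 1 was among the top 4 libraries for all 28 genes. The mitotic score minus the S phase mean was -0.10, 0.42, 0.42 and 0.27 in the MEKi libraries, against 0.40, 0.48, -0.24 and -0.29 in the control libraries. It was lowest in MEKi 1, control 3 and control 4, which are also the libraries with the highest S phase means. For MEKi 1 and control 4 the subtraction alone favours this order. Control 3 and control 2 had nearly equal S phase means, 10.14 and 10.13, and were set apart by their mitotic scores of 9.90 and 10.61. The 60 other G2 and mitosis genes, minus the S phase mean, gave -0.99, -0.59, -0.58 and -0.67 in the MEKi libraries, against -0.61, -0.55, -1.05 and -1.11 in the control libraries, where the same S phase mean was subtracted. Before subtraction the means of these 60 genes were 9.44, 9.42, 9.47 and 9.02 in the MEKi libraries, against 9.43, 9.58, 9.09 and 9.25 in the control libraries. Between the labels the mitotic score minus the S phase mean averaged 0.25 ± 0.25 for MEKi and 0.09 ± 0.41 for control (SD, n = 4 each), a difference of 0.16 that is smaller than either SD. The pattern was noticed after the values were seen and was not tested.

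**Figure D3:**
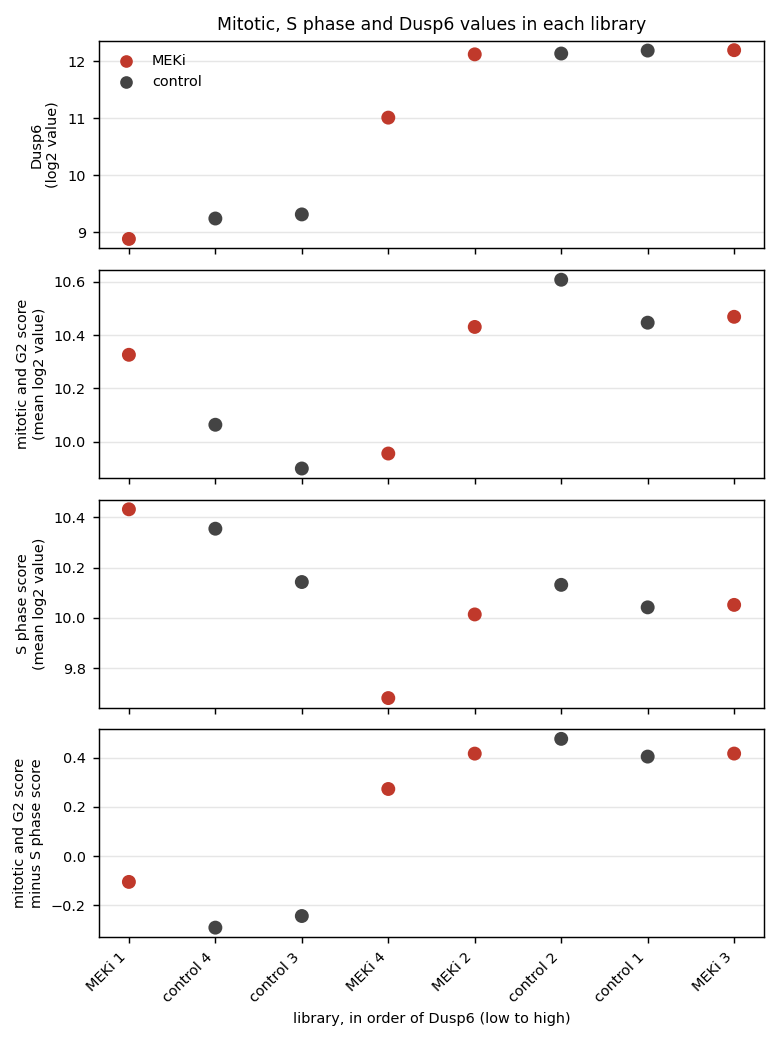
Values of each library (MEKi red, control dark grey), placed from the lowest to the highest Dusp6: Dusp6, the mean of the 40 mitotic and G2 genes, the mean of 28 S phase genes, and the difference of these means, all in log2 units. The mitotic mean of MEKi 1 is 10.33 although its Dusp6 is lowest, and the difference of means is -0.10 in MEKi 1, -0.29 in control 4 and -0.24 in control 3 and at least 0.27 in the other 5.

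MEKi 4 and control 3 had similar scores, and 37 members were low in both, though by different amounts. Set against the mean of the other 7 libraries, MEKi 4 was lower for 37 members, most for Ube2c at -0.96 and Cdca8 at -0.75, and it was above them for Cenpf at 0.17, Mki67 at 0.07 and Top2a at 0.05. Control 3 was lower than the mean of the other 7 libraries for all 40 members, most for Cenpe at -0.85 and least for Bub3 at -0.11, and it was at -0.73 for Ube2c. The union of exons is long for Cenpf (15433 bases), Mki67 (10061) and Top2a (9013), against 2600 for Ube2c and 5177 for Cdca8. Other members with long exon unions were lower in MEKi 4, at -0.04 for Cenpe (8620), -0.26 for Anln (9063) and -0.52 for Ccnf (7800). Ccnb2, the shortest at 1531 bases, was at -0.41. Over the 40 members the Spearman correlation of the deviation of a library with exon length was -0.02, -0.04, -0.27 and 0.41 in the MEKi libraries, against -0.0017, -0.33, 0.01 and 0.04 in the control libraries. Over 10107 genes of like mean it was 0.28 for MEKi 4, between -0.23 and 0.08 for the other MEKi libraries, and between -0.25 and 0.04 for the control libraries. These are descriptions across genes, which share the library they were measured in and are not independent. The mean of the epithelial tumour markers was also lowest in MEKi 4, with list means of 12.91, 12.89, 12.58 and 11.98 in the MEKi libraries, against 12.77, 12.82, 12.82 and 12.69 in the control libraries. The list was split in MEKi 4. Cldn7 and Cldn4 had their fewest reads there, 118 and 153. Cdh1 and Muc1 had their most, 35894 and 23266, and stayed highest there after scaling by the size factors. The list mean is therefore no plain measure of epithelial content, and the part of such content and of transcript length in the low values of MEKi 4 was not tested. The acinar mean was 11.21 in MEKi 4 and 16.57 in control 3, 14.93 in control 2 and 8.32 in control 4. With it as a covariate the score difference between the labels was -0.059 in place of 0.04, and 14 members changed sign. Its part in the mitotic values was not tested.

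**Figure D4:**
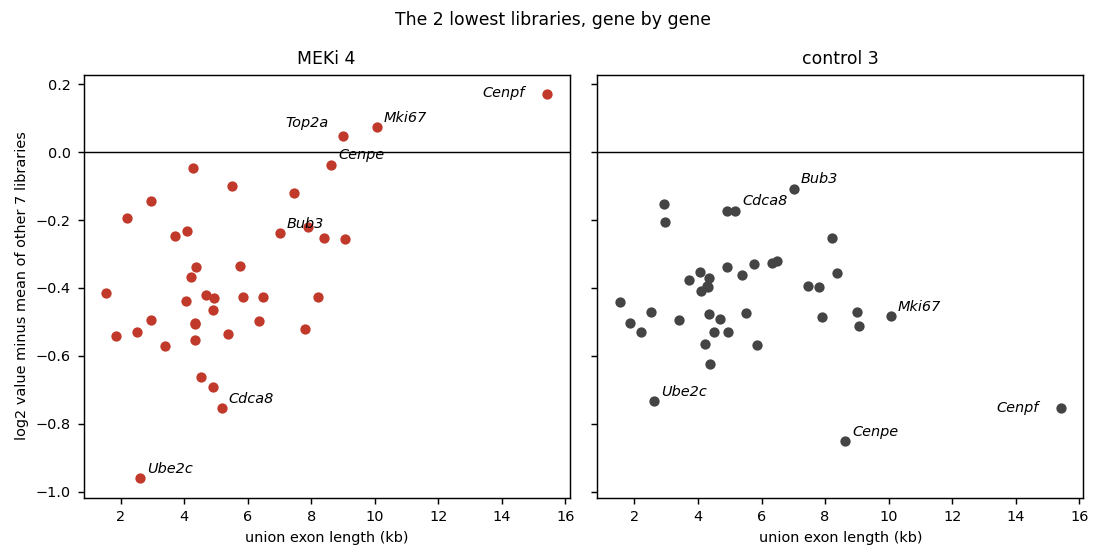
Log2 value of each of the 40 genes in MEKi 4 (left) and control 3 (right), minus its mean over the other 7 libraries, against the union exon length of the gene in kilobases. In MEKi 4 the values run from -0.96 for Ube2c to 0.17 for Cenpf, the longest, and in control 3 all 40 lie below 0, with Cenpe lowest at -0.85.

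The wider cell cycle machinery gave 0 calls between the labels as well, against 0.00523% of all genes called. For the counts of means below, 51.6% of all genes had a higher mean under the MEKi label. Of 60 other G2 and mitosis genes, limma called 0 higher and 0 lower, 0 had an unadjusted p under 0.05, and 32 had a higher and 28 a lower mean under the MEKi label. Their score averaged 9.34 ± 0.21 under the MEKi label and 9.34 ± 0.22 under the control label. The gene with the smallest p was Spc25, a kinetochore subunit that works with Ndc80 (9.06 ± 0.03 under the MEKi label and 8.95 ± 0.07 under the control label). A further list held 18 genes of the DREAM and MuvB complexes, the retinoblastoma family and the E2F factors. Some of them hold mitotic genes silent in resting cells. Of the 18 genes, 0 were called and 11 had a higher mean. The retinoblastoma gene Rb1 had the smallest p of these, at 9.71 ± 0.30 under the MEKi label and 9.49 ± 0.04 under the control label. Of 15 APC/C subunit genes, 0 were called, and their list mean moved by no more than 0.08 over all 8 libraries. The mean of Ube2c and Cdc20 moved by 1.17, but a mean over 15 genes can cancel opposite movements. Single subunit genes had log2 differences of -0.18 to 0.14 between the labels. For 1 of them every MEKi library exceeded every control library, against 0.565% of all genes. For 1 other every MEKi library fell below every control library, against 0.701%. Cdc16 had the smallest p there, at 11.44 ± 0.18 under the MEKi label and 11.62 ± 0.09 under the control label.

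Of the 28 S phase genes, 0 were called. Under the MEKi label 25 had a lower and 3 a higher mean, against 51.6% of all genes higher. The list difference was -0.12, and it was -0.0019 without MEKi 4. Mcm6, a subunit of the replicative helicase, had the smallest p, at 12.33 ± 0.31 under the MEKi label and 12.55 ± 0.16 under the control label. Of the 11 D cyclin, partner and CDK inhibitor genes, 0 were called and Cdk6 had the smallest p (13.19 ± 1.06 under the MEKi label and 13.90 ± 0.10 under the control label). Of the 17 ERK output genes, 0 were called and 13 had a higher mean, against 51.6% of all genes. Epha4 had the smallest p of these (9.74 ± 0.49 under the MEKi label and 9.34 ± 0.23 under the control label).

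Among markers of other cells that could divide in the tumour, the libraries stood in other orders. The T cell list had means of 9.37, 8.24, 9.38 and 8.77 in the MEKi libraries, against 8.65, 8.79, 8.57 and 9.71 in the control libraries. Control 4, the library with the highest T cell mean, was among the lowest for mitotic genes, though not every T cell marker was highest in it. B cell and erythroid markers were highest in MEKi 3, the library with the highest Mki67, at list means of 8.13 for 7 B cell genes and 11.08 for 5 erythroid genes. In the other 7 libraries the B cell mean was at most 7.04 and the erythroid mean at most 9.29. The fibroblast list had means of 12.68, 11.85, 12.03 and 12.10 in the MEKi libraries, against 12.52, 13.27, 12.68 and 11.98 in the control libraries. The macrophage list had means of 10.57, 10.53, 10.78 and 10.51 in the MEKi libraries, against 10.85, 11.41, 10.69 and 10.54 in the control libraries. Control 2 was highest for the mitotic, fibroblast and macrophage lists. The neutrophil list was lowest in MEKi 4 at 8.29, and the endothelial list was highest in control 2 at 9.93 and lowest in control 4 at 8.65. The part of these cells in the mitotic values was not tested.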

How the data were processed

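Total RNA of 8 tumours, 4 labelled MEKi and 4 control, each from its own mouse, was purified with TRIzol and a column and sequenced as stranded total RNA libraries, per the labels' protocols. The submitters' processing notes name the aligner STAR 2.5.3a, the package DESeq2 1.18.1 and the build GRCm38. The counting method and annotation (not given in the sources used here) could matter for paralogues, and genes with near-identical copies are uncertain. The authors deposited log2-like values of the DESeq2 variance-stabilising transformation, which draws low values towards a floor of 5.12.

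Of 19431 rows, 32 without a gene name (0.101% to 0.167% of the reads of a library) were left out and 86 symbols with several rows were collapsed to 1 each. This left 19129 genes, of which 19058 matched the reference names. Inverting the transformation gave whole reads for 100% of values within 0.01, and every gene tested had at least 25 reads in total. Chromosomes, exon lengths and names came from GENCODE M21 and promoters from RefSeq.

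MEKi was compared with control by limma 3.58.1 with trend in R 4.3.3, as a two-sided test, and p-values were adjusted by Benjamini and Hochberg's method across the whole table, at 0.05. The model was tested on simulated data first. Recovered reads served for depth and levels only, and no count model on them is reported, since the deposited values are not counts. Scores are means of log2 values and got no test. The members, the other gene lists (226 of 230 entries measured) and the tests were chosen with earlier results of these data known. Named were all members, by role, and of each pathway list the gene with the smallest p and any past the threshold. Replicate numbers carry no stated pairing. No 2 libraries agreed within sampling noise. The tried alternatives are given in the closing section.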

Additional observations from a re-analysis of the deposited data

Results flagged for a closer look

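In 10 of the 84 groups of 4 libraries examined (each member, the score, and the score minus the S phase mean, under each label), a single library stood apart, with a gap to its nearest neighbour that passed Dixon's 95% critical value as a share of the range of the group. Chance alone flags about 1 in 20 groups. The members are correlated across libraries, so these are not separate events. In 8 of the 10 the library was MEKi 4, below the other MEKi libraries. The gap made up 0.973 of the range for Cdca8 (9.25 in MEKi 4), 0.889 for Ccnf (9.35), 0.882 for Ndc80 (9.20), 0.879 for Nuf2 (8.95), 0.867 for Incenp (10.41), 0.856 for Cdk1 (10.53), 0.849 for Cdc25c (7.66) and 0.832 for Foxm1 (10.10). Under the MEKi label Top2a stood apart in MEKi 1, at 13.26, with a gap of 0.841 of a narrow range. Under the control label Nuf2 stood apart in control 3, at 9.10, with a gap of 0.852 of the range. Without MEKi 4 the mean was higher under the MEKi label for 39 of the 40 members, and 0 were called.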

How the results depend on the processing

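The number of members called was 0 under every alternative tried, as was the number of the 60 other G2 and mitosis genes. These alternatives were moderation that is robust or without trend, values put on common quantiles or a common median, a table cut to the upper 75% of genes by mean, array weights, an acinar or a Dusp6 covariate, the replicate block, and each library left out in turn. Limma voom on the recovered reads was planned and is not reported, as the deposited values are not counts. The signs of the small differences were not stable. The score difference of 0.04 was -0.059 with the acinar covariate, 0.001 with the Dusp6 covariate, 0.069 with aligned medians, and -0.0775 to 0.159 with a library left out. The count of members with a higher mean under the MEKi label was 28, and it was 14 with the acinar covariate, 35 with array weights and 6 to 39 with a library left out. No pairing by replicate number was visible, as the deviations of same-numbered libraries correlated at -0.333, 0.196, -0.465 and 0.0242. With 4 libraries per label that differ widely in acinar markers, this check cannot exclude a pairing. With the replicate block 0 members were called and the score difference was 0.041. The median of all genes lay at 0.01 as deposited and at 0.02 with quantile normalisation and 0.03 with aligned medians. The label difference of the score minus the S phase mean was 0.1637, and it was 0.1645 under quantile normalisation and 0.1717 with medians, alternatives chosen after the data were seen.

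The log2 differences that changed sign, none of which passed the test, were as follows. With quantile normalisation the difference was Ccnb2 0.002, and with aligned medians Ccnb2 0.0176, Birc5 0.016 and Ect2 0.0156. With array weights it was Ccnf 0.0102, Cdc25c 0.0167, Aurka 0.0205, Nek2 0.0693, Birc5 0.0858, Ect2 0.0676 and Prc1 0.01. With the acinar covariate it was Ccna2 -0.0053, Cdk1 -0.128, Cdc25b -0.0313, Bub1 -0.194, Mad2l1 -0.0603, Incenp -0.0413, Cenpa -0.0778, Ndc80 -0.123, Nuf2 -0.133, Tpx2 -0.043, Nusap1 -0.0841, Cdc20 -0.102, Ube2c -0.275 and Anln -0.0046. With the Dusp6 covariate it was Cdk1 -0.0168, Cdc25b -0.0426, Foxm1 -0.011, Bub1 -0.0345, Cenpa -0.0067, Ndc80 -0.0136, Cdc20 -0.0591 and Ube2c -0.0646. With a library left out the ranges were Ccnb2 -0.15 to 0.157, Cdk1 -0.13 to 0.149, Foxm1 -0.0928 to 0.189, Melk -0.0281 to 0.0921, Bub1 -0.134 to 0.152, Ndc80 -0.0915 to 0.127, Nuf2 -0.0703 to 0.171, Cdc25b -0.108 to 0.155, Kif11 -0.0409 to 0.155, Tpx2 -0.0783 to 0.195, Cdc20 -0.144 to 0.176 and Ube2c -0.191 to 0.306. The other ranges that crossed 0 were Anln -0.083 to 0.204, Ccnb1 -0.0364 to 0.293, Aurkb -0.0128 to 0.226, Incenp -0.0357 to 0.229, Cenpa -0.0942 to 0.229, Ccnf -0.191 to 0.0773, Cdc25c -0.224 to 0.0767, Aurka -0.173 to 0.118, Nek2 -0.188 to 0.16, Ttk -0.164 to 0.0219, Birc5 -0.158 to 0.153 and Cdca8 -0.194 to 0.0915. The rest were Kif20a -0.268 to 0.0104, Ect2 -0.12 to 0.142, Prc1 -0.162 to 0.0707, Ccna2 -0.0085 to 0.189, Top2a -0.0018 to 0.198, Bub1b -0.0446 to 0.139, Mad2l1 -0.0383 to 0.14, Kif2c -0.0474 to 0.287, Kif4 -0.0487 to 0.186 and Nusap1 -0.0031 to 0.228. The cause of these changes was not tested. With 4 libraries per label, the 95% interval of the fold ran from 0.818 to 1.12 for Bub3, the narrowest of the members, and from 0.584 to 1.77 for Ube2c, the widest, and reached 1.82 for Cenpe. Changes within these spans cannot be told from none.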
